A study of Sus scrofa with 12 samples.

Results

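Mitochondria of muscle fibres form a network that is continually joined and divided. The mitofusins *MFN1* and *MFN2* are GTPases that join the outer membranes of neighbouring mitochondria, and *OPA1* joins the inner membranes and shapes the cristae. Division needs the dynamin-like GTPase *DNM1L* (also called DRP1), which is brought from the cytosol to the surface of the organelle by the adaptors *MFF*, *FIS1*, *MIEF1* and *MIEF2*. The kinase *PINK1* gathers on mitochondria that have lost their membrane potential and marks them for removal by autophagy. These 9 genes are described here in the *Longissimus dorsi*, the loin muscle, of Iberian pigs, among 28212 annotated genes of the pig genome Sscrofa11.1. They were chosen by name as mitochondrial dynamics genes, not selected on a threshold, but with gene FPKM results of these same libraries known.

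The muscle came from 12 castrated males of 1 purebred Iberian line, fattened outdoors on acorns and grass, with no close sibs among them. The 6 Tough animals had high estimated breeding values for shear force (from 1.76 to 2.4) and a measured shear force of 9.17 ± 1.28 kg/cm2 (SD, n = 6), against 2.94 ± 0.415 kg/cm2 (SD, n = 6) in the 6 Tender animals, whose breeding values ran from -1.09 to -0.98. Shear force is the force needed to cut cooked meat, so a high value is tough meat. Each library is 1 animal. The groups were chosen for their extreme values, and no source used here gives the year, fattening batch or sequencing lane of a library.

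The libraries held 27849 to 30246 assembled transcripts in Tough and 25798 to 31353 in Tender, of which 63.9% to 74.8% were assigned to a gene. Values are FPKM, a measure of sequenced fragments scaled by transcript length and by library size, brought to 1 value per gene by weighting each assigned transcript with its length over the exon length of the gene. The files hold no read counts, so the number of reads behind each value is unknown from them. They do give a coverage for each transcript, and its median per FPKM ran from 6.54 to 10.2 over the libraries. This ratio is only a relative guide to the depth of a library. Among markers of skeletal muscle, *MYH7*, *TNNT3*, *MYLPF*, *TTN* and *NEB* were present in all 12 libraries. *CKM* was listed at 0 in 7 libraries and *DES* in 5, and *ACTA1*, *MYH1*, *MYH2* and *MYH4* were listed at 0 in all 12. Muscle is known to express these genes, so that a listed 0 in these files is not evidence of absent expression. The summed FPKM of 8 slow fibre markers ran from 4463 to 9737 in Tough and from 7075 to 12350 in Tender, and that of 11 fast fibre markers from 31295 to 48040 in Tough and from 20010 to 43624 in Tender. In that fast fibre sum *TNNI2* and *CASQ1* were listed at 0 in 4 libraries each and *TNNC2* in 2, so its range includes libraries in which these genes were missing from the files. The sum of 4 red blood cell markers did not overlap, at 124.1 to 206.9 in Tough and 238.6 to 353.1 in Tender. It was nearly all *HBB*, with means of 163.7 FPKM in Tough and 294.5 FPKM in Tender. *ALAS2* had means of 0.83 FPKM in Tough and 1.65 FPKM in Tender, *AHSP* was listed at 0 in 7 libraries and *SLC4A1* in all 12. For comparison, groups that did not overlap were found for 0.0998% of tested genes. The part of these marker levels in the results below was not tested. In whole muscle, fewer cells of a type and less RNA per cell cannot be told apart.

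Per unit of transcript length, the most abundant of the 9 genes were *FIS1* and *PINK1*, with mean levels over the 12 libraries of 105.7 and 100.6 FPKM. These 2 neighbours did not differ beyond their spread, *FIS1* being the higher in 6 of 12 libraries. *MFN2* followed at 32.6 FPKM and *MFF* at 16.8 FPKM, and both steps of this order held in 12 of 12 libraries with no overlap of ranges. Below them stood *MIEF2* (10.4 FPKM, with 4 libraries listed at 0), *MFN1* (5.49 FPKM), *DNM1L* (5.18 FPKM), *OPA1* (3.11 FPKM) and *MIEF1* (2.32 FPKM). The ranges of each neighbouring pair overlapped there, although *DNM1L* was above *OPA1* in 12 of 12 libraries. For comparison, the median tested gene had 3.33 FPKM, 96.8% of tested genes were below *FIS1*, and 39.9% were below *MIEF1*. The adaptors of DNM1L covered the whole range of levels, and *MFN2* exceeded *MFN1* in all 12 libraries.

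**Figure D1:**
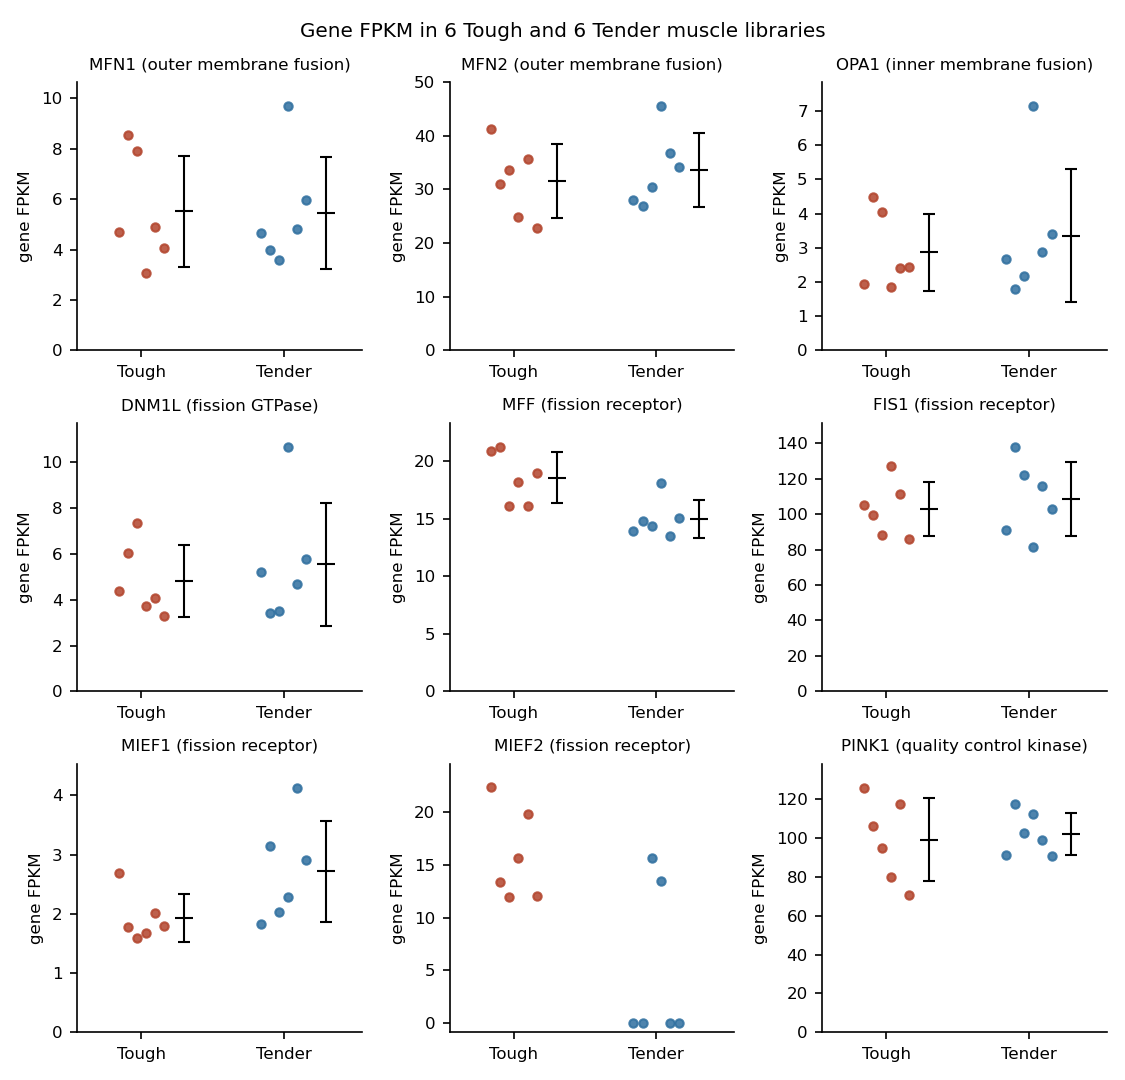
Gene FPKM (vertical axes, from 0, a different scale in each panel) of the 9 genes in 6 Tough and 6 Tender libraries. Each point is 1 animal and the bars are the mean ± SD, left out for *MIEF2*. Tough and Tender overlap in every panel, 1 Tender library (Tender 4) is the highest for *MFN1*, *MFN2*, *OPA1*, *DNM1L* and, within its group, *MFF*, and 4 Tender libraries are at 0 for *MIEF2*.

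The main comparison asked whether the loins of Tough and Tender animals differed in the expression of these genes. None of the 9 was called different (limma on log2(FPKM + 0.5), with limits of 0.05 on p, 0.10 on the Benjamini-Hochberg adjusted p and 1.5 on the fold change), and the share called among all 9019 tested genes was 0%, with a smallest adjusted p of 0.652. At an unadjusted p of at most 0.05 stood 64 genes higher in Tough, a share of 0.71%, and 160 genes lower in Tough, a share of 1.77%. Of the 8 members whose difference was tested, *MFF* was on the higher side and *MIEF1* on the lower side of that unadjusted limit, and each had an adjusted p of 1.00. Groups that did not overlap were found for 0.0998% of tested genes and for 0 of the 9 members.

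The outer membrane fusion genes had nearly the same mean level in both groups. *MFN1* had 4.69, 8.55, 7.93, 3.07, 4.89 and 4.05 FPKM in Tough 1 to 6, and 4.65, 3.98, 3.57, 9.70, 4.83 and 5.97 FPKM in Tender 1 to 6. The means were 5.53 ± 2.201 FPKM in Tough and 5.45 ± 2.24 FPKM in Tender (SD, n = 6 each). Tough 2, Tough 3 and Tender 4 were high and the other 9 libraries lay between 3.07 and 5.97 FPKM, with the groups overlapping throughout. The log2 fold change was 0.01 (SE 0.27, limma adjusted p 1.00).

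*MFN2*, which also tethers mitochondria to the endoplasmic reticulum, had 41.3, 31.1, 33.6, 24.8, 35.5 and 22.8 FPKM in Tough 1 to 6, and 28.0, 27.0, 30.4, 45.5, 36.8 and 34.1 FPKM in Tender 1 to 6. Its lowest values were those of Tough 6 and Tough 4 and its highest those of Tender 4 and Tough 1, so that each group held high and low libraries. The log2 fold change was -0.10 (SE 0.17, limma adjusted p 1.00).

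*OPA1* was the member that varied most among those detected in all 12 libraries, with a 3.99-fold ratio of the highest to the lowest library. It had 1.95, 4.50, 4.05, 1.84, 2.42 and 2.44 FPKM in Tough 1 to 6, and 2.68, 1.79, 2.17, 7.15, 2.89 and 3.42 FPKM in Tender 1 to 6. Tender 4 stood far above every other library, and Tough 2 and Tough 3 followed it. The means were 2.87 ± 1.13 FPKM in Tough and 3.35 ± 1.95 FPKM in Tender, with a log2 fold change of -0.14 (SE 0.29, limma adjusted p 1.00), which turned to 0.09 without Tender 4. It was 0.21 with transcript FPKM simply summed and 0.32 with the most abundant transcript alone. The assembly of *OPA1* was uneven. A transcript with all introns of an annotated one was present in 9 of the 12 libraries, and the most abundant transcript of Tender 5 had 1 exon. As little as 52.3% of the bases of a transcript lay inside the annotated exons.

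The fission GTPase *DNM1L* followed the same libraries. It had 4.40, 6.03, 7.36, 3.71, 4.08 and 3.30 FPKM in Tough 1 to 6, and 5.21, 3.42, 3.50, 10.7, 4.71 and 5.77 FPKM in Tender 1 to 6. Again Tender 4, Tough 3 and Tough 2 were the 3 highest and the groups overlapped. The log2 fold change was -0.14 (SE 0.26, limma adjusted p 1.00) and turned to 0.06 without Tender 4, while with transcript FPKM simply summed it was -0.55. The assembled transcripts of *DNM1L* reached beyond the annotated exons, with as little as 61.8% of their bases inside them, and *DNM1L* was the member whose main transcript had the widest Cufflinks confidence interval, up to 30.8% of its FPKM to each side.

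The 4 adaptors of *DNM1L* did not behave alike. *FIS1*, a small protein anchored in the outer membrane by its tail, had 105, 99.6, 88.3, 127, 111 and 85.7 FPKM in Tough 1 to 6, and 90.8, 138, 122, 81.6, 116 and 103 FPKM in Tender 1 to 6. Here Tender 4 was the lowest of the 12 libraries, opposite to its place for *OPA1* and *DNM1L*. The means were 102.8 ± 15.3 FPKM in Tough and 108.5 ± 20.8 FPKM in Tender, with a log2 fold change of -0.07 (SE 0.15, limma adjusted p 1.00).

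*MIEF1*, which encodes the adaptor MiD51, had 2.69, 1.79, 1.60, 1.67, 2.02 and 1.79 FPKM in Tough 1 to 6, and 1.83, 3.14, 2.04, 2.28, 4.13 and 2.91 FPKM in Tender 1 to 6. Tender 2, Tender 5 and Tender 6 were above every Tough library, while 4 Tough libraries were below every Tender one. The mean level was 1.93 ± 0.402 FPKM in Tough and 2.72 ± 0.853 FPKM in Tender, a log2 fold change of -0.38 (SE 0.18, limma p 0.049, adjusted p 1.00). An exact two-sided permutation test over all 924 splits of the animals gave p = 0.0519. The unadjusted limma p was above 0.05 in 8 of the 12 fits that left out 1 library, reaching 0.115 without Tender 5, and was 0.059 with median-of-ratios scaling and 0.066 with quantile normalization.

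*MFF*, the adaptor that carries most recruitment of DNM1L in many mammalian cell types, had 20.9, 21.2, 16.1, 18.2, 16.1 and 19.0 FPKM in Tough 1 to 6, and 14.0, 14.8, 14.3, 18.1, 13.5 and 15.0 FPKM in Tender 1 to 6. Of the 6 Tender libraries 5 lay below the lowest Tough library, Tender 4 being the exception, and 4 Tough libraries lay above the highest Tender one. The means were 18.6 ± 2.24 FPKM in Tough and 15.0 ± 1.64 FPKM in Tender, with a log2 fold change of 0.30 (SE 0.11, limma p 0.020, adjusted p 1.00, exact two-sided permutation p = 0.0130). The difference depended on transcript length. With FPKM simply summed over transcripts the means were 19.6 ± 4.68 in Tough and 20.5 ± 2.198 in Tender, the log2 fold change turned to -0.09, and with the most abundant transcript alone it was -0.15. With only the bases inside the annotated exons counted it was 0.46 (limma p 0.0023, adjusted p 1.00).

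The assembled *MFF* transcripts were longer in most Tough libraries. Their FPKM-weighted mean length was 1421, 1434, 1192, 1920, 1978 and 1766 bases in Tough 1 to 6, and 1193, 1187, 1224, 1215, 1211 and 1192 bases in Tender 1 to 6. All Tender libraries lay within a narrow band, Tough 3 lay in that band as well, and the other 5 Tough libraries lay above it. The extra length was at the 3′ side, where the last assembled base was 587, 568, 809, 52, 52 and 178 bases short of the annotated end of the gene in Tough 1 to 6, and 773 to 837 bases short of it in Tender. The mean length was 1618 ± 315 bases in Tough and 1204 ± 15.0 bases in Tender, a log2 ratio of 0.43. Among 7938 genes with transcripts in all 12 libraries the median log2 ratio was 0.01, 54.4% were longer in Tough, and 3.17% had a larger ratio than *MFF*. This length was examined after the values had been seen and was given no test, and whether the true 3′ ends or only their assembly differed was not tested.

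**Figure D2:**
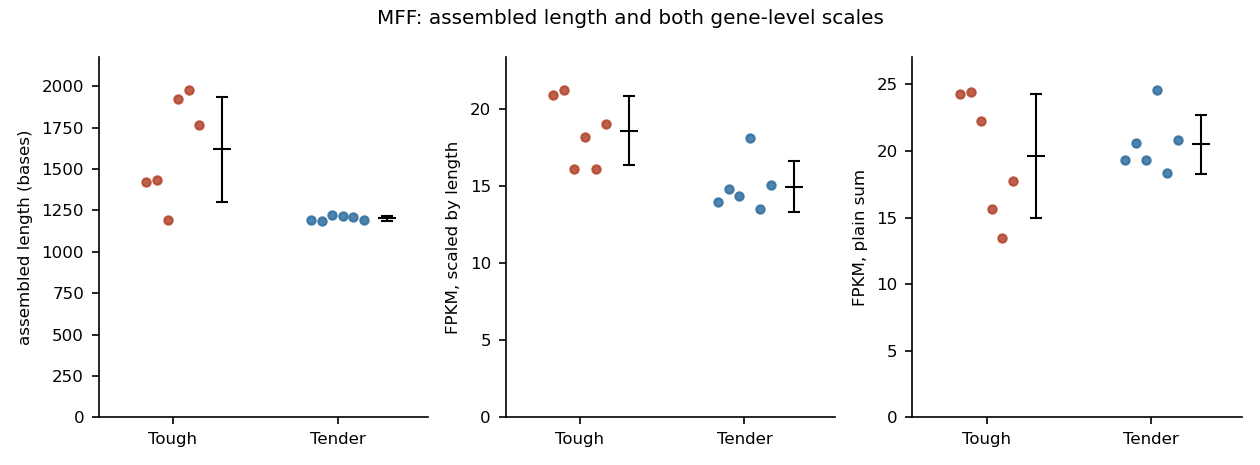
*MFF* in 6 Tough and 6 Tender libraries. From left to right the vertical axes, each from 0, give the FPKM-weighted mean length of the assembled transcripts in bases, the gene FPKM scaled by that length, and the plain sum of transcript FPKM, with 1 point per animal and bars for mean ± SD. The Tough lengths run up to 1978 bases while the Tender ones stay between 1187 and 1224, and the group difference seen on the middle panel is absent from the right one.

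*MIEF2*, which encodes the adaptor MiD49, showed the widest gap, and this gap was already known when the list was drawn up, so it is described without a test. It had 22.4, 13.4, 11.9, 15.6, 19.8 and 12.01 FPKM in Tough 1 to 6, and it had 15.6 FPKM in Tender 3 and 13.5 FPKM in Tender 4 and was listed at 0 in Tender 1, 2, 5 and 6. These values count the full length of the transcript, also where it ran beyond the exons of the gene. Counted per exon base, *MIEF2* had 13.6, 9.42, 9.32, 10.6, 12.2 and 7.23 FPKM in Tough 1 to 6, and 13.2 FPKM in Tender 3 and 13.4 FPKM in Tender 4, so that both of these Tender libraries were above 5 of the 6 Tough ones. On the full-length scale no intermediate value occurred: a library had either a transcript of at least 11.9 gene FPKM or none. Such a pattern, listed at 0 in 4 or more libraries of a group and in none of the other, was found for 0.0554% of tested genes.

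*MIEF2* (chr12:60461373-60475695, minus strand) stands head to head with *FLII*, a gelsolin-family actin regulator on the plus strand (chr12:60475722-60487376), and 26 bases lie between their annotated starts. These bases, shown in capitals between 10 lower-case bases of each first exon and read along the plus strand of Sscrofa11.1 (chr12:60475696-60475721), consist wholly of G and C.
MIEF2 to FLII: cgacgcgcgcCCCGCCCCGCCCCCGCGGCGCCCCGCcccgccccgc

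In the 8 libraries with a *MIEF2* transcript, its first exon ran past the annotated start, by 1714, 1132, 753, 1276, 1668 and 1756 bases in Tough 1 to 6, and by 493 bases in Tender 3 and 11 bases in Tender 4. It reached into *FLII* in all of them but Tender 4, where it ended within the 26 bases between the 2 annotated starts. The overrun was longer in every Tough library than in either Tender one. Transcripts of both genes were joined by Cufflinks into 1 locus in 7 of these libraries, and *MIEF2* was credited with 18.7%, 12.6%, 11.2%, 13.5%, 15.97% and 13.2% of that locus in Tough 1 to 6 and with 11.8% in Tender 3, while in Tender 4 it formed a locus of its own. In none of the 12 files did any transcript carry less than 10% of its locus, against 11.2% to 18.7% for *MIEF2* where it shared a locus. In the 4 libraries without *MIEF2*, transcripts of *FLII* took 100% of the locus.

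The level of *FLII*, looked at after its values had been seen, was 70.0, 65.9, 68.7, 71.7, 74.6 and 56.6 FPKM in Tough 1 to 6, and 69.1, 100.7, 82.6, 71.7, 102.1 and 81.0 FPKM in Tender 1 to 6. Tender 2 and Tender 5, both without a *MIEF2* transcript, had the most *FLII*, although Tender 1, also without one, had an ordinary level. The means were 67.9 ± 6.27 FPKM in Tough and 84.5 ± 14.1 FPKM in Tender, a log2 fold change of -0.30 (SE 0.13, limma adjusted p 1.00, exact two-sided permutation p = 0.0216). Because *FLII* was chosen after its values were seen, this permutation p cannot be read as a test of a difference. Whether *MIEF2* was transcribed in the 4 libraries at 0 was not tested, since the files hold assembled transcripts and no reads.

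**Figure D3:**
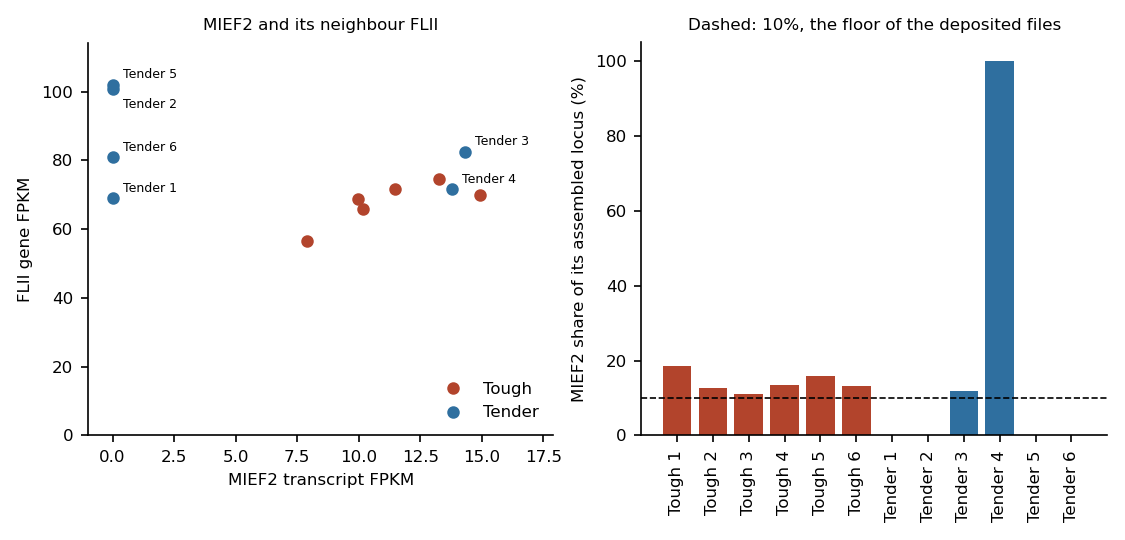
Left, gene FPKM of *FLII* (vertical axis) against FPKM of the *MIEF2* transcript (horizontal axis), 1 point per library with the Tender libraries named. Right, the percentage of the assembled locus credited to *MIEF2* in each library, with a dashed line at 10%, below which the files list no transcript. The *MIEF2* shares of 7 libraries lie between 11.2% and 18.7%, Tender 4 is at 100% and 4 Tender libraries have no *MIEF2* transcript.

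The quality control kinase *PINK1* had 126, 106, 94.6, 80.1, 118 and 70.6 FPKM in Tough 1 to 6, and 90.9, 117, 103, 112, 98.9 and 90.8 FPKM in Tender 1 to 6. The Tough libraries spread to both sides of the Tender ones, with 2 above and 2 below all of them. The means were 99.1 ± 21.4 FPKM in Tough and 102.1 ± 10.9 FPKM in Tender, with a log2 fold change of -0.07 (SE 0.15, limma adjusted p 1.00).

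Within the groups, the levels of the members were set against the shear force of each animal, in 17 relations with exact permutation tests over 720 pairings. No relation had an exact p of at most 0.05, the smallest p being 0.167 and the smallest adjusted p 0.856. That smallest p belonged to *FIS1* in the 6 Tough animals, with Pearson r = 0.64 (exact p = 0.167), Spearman rho = 0.54 (exact p = 0.297) and r = 0.51 without the 2 animals farthest from the median shear force. In the 6 Tender animals *PINK1* had r = -0.61 (exact p = 0.199), rho = -0.60 (exact p = 0.242) and r = -0.78 without the 2 farthest animals. In 9 of the 17 relations r changed sign without those animals, among them *PINK1* in Tough (r = 0.40 and then -0.86) and *MFN2* in Tough (0.38 and then -0.98) and in Tender (0.21 and then -0.92). An r without the 2 farthest of 6 animals rests on very few animals and was given no test, so its size carries little weight.

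*MFN1*, *OPA1* and *DNM1L* varied together from library to library, and *FIS1* varied opposite to them. Over the 12 libraries Pearson r of log2 levels was 0.93 between *MFN1* and *OPA1*, 0.93 between *OPA1* and *DNM1L* and 0.91 between *MFN1* and *DNM1L*, and it was 0.92, 0.86 and 0.88 without Tender 4. With *FIS1*, r was -0.66 for *MFN1*, -0.71 for *OPA1* and -0.66 for *DNM1L*. *MFN2* went with *PINK1* (r = 0.70), and nearly as much with *DNM1L* (0.66), *MFN1* (0.61) and *OPA1* (0.53). Without Tender 4 these were 0.70 with *PINK1*, 0.46 with *DNM1L*, 0.43 with *MFN1* and 0.24 with *OPA1*. These are descriptions over 12 libraries that share their assembly and scaling. Each of *MFN1*, *OPA1* and *DNM1L* had its 3 highest values in Tender 4, Tough 2 and Tough 3.

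**Figure D4:**
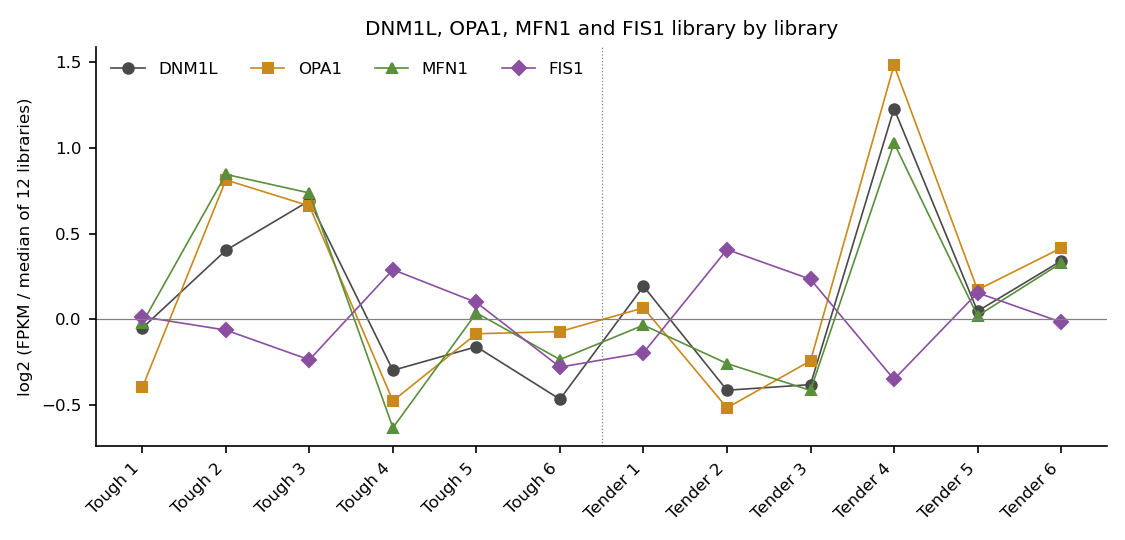
Levels of *DNM1L*, *OPA1*, *MFN1* and *FIS1* in each library (horizontal axis, Tough 1 to 6 and then Tender 1 to 6), as log2 of FPKM over the median of the 12 libraries (vertical axis). The first 3 genes peak together in Tough 2, Tough 3 and Tender 4, and *FIS1* is lowest in Tender 4.

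The pattern was not particular to mitochondrial dynamics. With the group means taken off, 1150 of 6580 other genes (17.5%) had r above 0.8 with *DNM1L* and 579 (8.80%) had r below -0.5, and *MFN1* was the 152nd and *OPA1* the 129th closest gene to *DNM1L*. The closest genes were *VAMP7* and *CHMP5* (r = 0.98 and 0.97) for *DNM1L*, *MOB1B* and *TMX3* (0.99 and 0.99) for *OPA1*, and *TRAPPC8* and *CCNT1* (0.99 and 0.99) for *MFN1*. For *FIS1* they were *PQBP1* and *UBL7* (0.94 and 0.94), for *MFN2* *AQP7* and *STIM2* (0.96 and 0.95), and for *PINK1* *CMTR1* and *PPIE* (0.95 and 0.94). For *MFF* they were *OST4* and *CTBP2* (0.90 and 0.84), and for *MIEF1* *IPO13* and *CANT1* (0.89 and 0.89). Of 54 other genes of mitochondrial dynamics, turnover and biogenesis with a value in every library, 12 (22.2%) had r above 0.8 with *DNM1L*. They included *SLC25A46* and *OMA1* of the fusion and OPA1-processing list, *YME1L1*, which also cleaves OPA1, *MARCH5*, a ubiquitin ligase of the outer membrane, and *RHOT1*, *TRAK2* and *KIF5B*, which carry mitochondria along microtubules.

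The genes of this pattern differed from the others in base composition. Exons of *OPA1*, *DNM1L* and *MFN1* had 38.6%, 39.8% and 40.6% G and C, among the lowest of the members, against 57.8% in *FIS1*, 57.7% in *MFN2*, 59.5% in *PINK1* and 69.8% in *MIEF2*. *MFF* had 41.4% G and C and r = 0.36 with *DNM1L*, while *MFN2*, at 57.7%, had r = 0.65 with it. The median over the 1150 genes with r above 0.8 was 41.9% (quartiles 39.4% and 44.7%), over the 579 genes with r below -0.5 it was 60.7% (quartiles 56.9% and 64.1%), and over all 6580 it was 52.3%. The median exon length was 4626 bases in the first set and 2051 bases in the second set. Tender 4 had the largest scale factor of the 12 libraries (1.30, by median of ratios) and the lowest coverage per FPKM (6.54), and Tough 3 the next lowest (6.86), but Tough 2 had the second highest after Tough 6 (8.60 and 10.2). After this scaling Tender 4 had 8.22 FPKM of *DNM1L* and 5.50 FPKM of *OPA1* and remained the highest library for both, but with 7.47 FPKM of *MFN1* it was below Tough 2 (8.03) and Tough 3 (7.49). The part of base composition and of library properties in the pattern was not tested.

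Alternative exons of the members were examined because *OPA1*, *DNM1L* and *MFF* are known in mammals to be spliced differently between tissues. Inclusion is the FPKM of transcripts that hold an exon as a percentage of that plus the FPKM of transcripts that skip it. Of the 10 cassette exons found in members, 5 could be tested, and none was called at an adjusted p of at most 0.10, as against 0.0463% of 2162 exons over all genes (1 exon, of *USP16*). At an unadjusted p of at most 0.05 stood 0 of the 5, against 4.44% of all exons tested. The exons shown here were assembled in at least 4 libraries and have a length that is a multiple of 3, so that skipping one keeps the reading frame where it is coding. They are printed from Sscrofa11.1 on the strand of the gene, with the exon in capitals and 10 bases of intron in lower case on each side. In all of them the intron before the exon ends with ag and the intron after it begins with gt.
OPA1 54-base exon (chr13:130635413-130635466, plus strand): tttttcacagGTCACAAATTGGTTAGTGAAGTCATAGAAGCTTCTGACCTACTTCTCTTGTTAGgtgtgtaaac
OPA1 111-base exon (chr13:130646125-130646235, plus strand): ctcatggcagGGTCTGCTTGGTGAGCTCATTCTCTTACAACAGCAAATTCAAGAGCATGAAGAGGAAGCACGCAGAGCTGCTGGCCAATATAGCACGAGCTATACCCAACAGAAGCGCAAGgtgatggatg
DNM1L 39-base exon (chr5:41602672-41602710, minus strand): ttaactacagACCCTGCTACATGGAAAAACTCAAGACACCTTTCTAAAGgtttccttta
DNM1L 78-base exon (chr5:41576509-41576586, minus strand): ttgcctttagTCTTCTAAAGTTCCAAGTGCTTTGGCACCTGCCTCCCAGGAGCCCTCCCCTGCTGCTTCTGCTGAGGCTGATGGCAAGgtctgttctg
MFF 75-base exon (chr15:128784093-128784167, plus strand): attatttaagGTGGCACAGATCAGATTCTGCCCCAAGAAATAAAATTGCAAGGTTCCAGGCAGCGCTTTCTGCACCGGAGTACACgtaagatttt

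The 111-base exon of *OPA1* was included at 42.8%, 43.5%, 30.3%, 76.7%, 58.2% and 47.5% in Tough 1 to 6, and at 63.6%, 63.9%, 63.9%, 64.3%, 63.7% and 58.0% in Tender 1 to 6. The Tender values were close together, and 4 of the 6 Tough values were below all of them with Tough 4 above. The means were 49.8 ± 15.9% in Tough and 62.9 ± 2.41% in Tender, a difference of -13.0 percentage points (SE 6.92, limma p 0.081, adjusted p 0.815). With 1 library left out the difference ran from -18.4 percentage points without Tough 4 (limma p 0.0062, adjusted p 0.879) to -9.14 without Tough 3 (limma p 0.190, adjusted p 0.861).

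The 54-base exon of *OPA1* was included at 20.3%, 11.2%, 9.30%, 17.9%, 18.4% and 0% in Tough 1 to 6, and at 18.5%, 33.3%, 26.9%, 0%, 22.7% and 26.3% in Tender 1 to 6. The highest 4 values were Tender ones, and each group had 1 library with no inclusion. The difference was -8.43 percentage points (SE 6.28, limma adjusted p 0.815). With 1 library left out it ran from -12.7 percentage points without Tender 4 (limma p 0.040, adjusted p 0.876) to -5.86 without Tough 6 (limma p 0.377, adjusted p 0.878).

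The 39-base exon of *DNM1L* was included only in Tough 3 (15.3%) and Tough 6 (33.1%), and in Tender 3 (16.5%), Tender 4 (13.1%), Tender 5 (34.8%) and Tender 6 (24.5%). The 78-base exon was included in Tough 3 (15.3%), Tough 4 (25.02%) and Tough 5 (43.6%), and in Tender 1 (15.1%). All other libraries were at 0% for these exons, where forms below the lowest share in the files would not be seen. The differences were -6.76 percentage points for the first (SE 7.91, limma adjusted p 0.893) and 11.5 percentage points for the second (SE 7.74, limma adjusted p 0.815). The first was -2.76 without Tender 5 and -11.8 without Tough 6, and the second was 5.54 without Tough 5.

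*MFF* is annotated with 1 transcript of 8 exons, and no assembled transcript matched its full chain, the main ones having 10 or 11 exons. One of the extra exons was the 75-base exon shown above, which is not annotated and was assembled in all 12 libraries. It was included at 60.0%, 55.0%, 80.6%, 45.2%, 75.9% and 25.6% in Tough 1 to 6, and at 41.2%, 48.2%, 83.5%, 85.3%, 77.8% and 73.1% in Tender 1 to 6. The groups overlapped widely, with means of 57.0 ± 20.2% in Tough and 68.2 ± 18.8% in Tender, and being unannotated it was not among the exons tested. Other unannotated *MFF* exons, of 33 and 178 bases, were assembled in 3 libraries each.

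**Figure D5:**
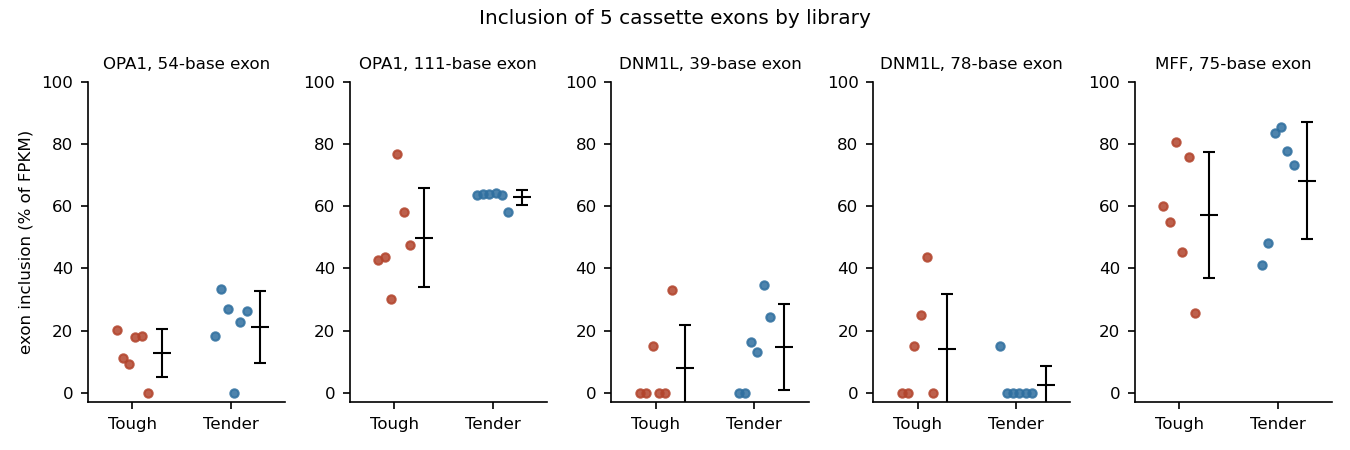
Inclusion of the 5 exons printed above, as the percentage of FPKM from transcripts with the exon (vertical axis), in 6 Tough and 6 Tender libraries. Points are animals and bars the mean ± SD, cut at the lower edge. The Tender values of the 111-base exon of *OPA1* lie between 58.0% and 64.3% and the Tough values between 30.3% and 76.7%, and the *DNM1L* exons are at 0% in most libraries.

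Around the 9 members, 67 further genes of mitochondrial dynamics, turnover, transport and biogenesis were examined, of which 58 could be tested and none was called. At an unadjusted limma p of up to 0.05, 1 of the 58 was higher and 4 were lower in Tough, beside shares of 0.71% and 1.77% over all tested genes. The median log2 fold change was -0.10, against -0.04 over all tested genes, and 47 of 58 (81.0%) were below 0, against 60.3% of all tested genes. With quantile normalization 33 of 58 (56.9%) were below 0, against 49.6% of all genes, and without Tender 4 these were 36 of 58 (62.1%) and 48.9%. *TFAM*, *PLD6* and *MTFR2* were listed at 0 in all 12 libraries.

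In the list of fusion partners and OPA1-processing proteases 10 of 10 tested genes were below 0, against 60.3% of all tested genes. Their median log2 fold change was -0.08, against -0.04 over all tested genes. Of the mitophagy receptors 4 of 6 were below 0, and of the proteases and chaperones 5 of 8. Among transport genes 3 of 5 were below 0, and among content and biogenesis genes 7 of 9. The smallest p of the fusion list was that of *MIGA2*, an outer membrane protein that promotes fusion. It had 5.02 ± 2.26 FPKM in Tough and 8.14 ± 2.38 FPKM in Tender (limma p 0.034, adjusted p 1.00, exact permutation p = 0.0519). Of 8 fission accessory factors 7 were below 0. *AKAP1*, which anchors protein kinase A at the outer membrane, had 24.6 ± 6.39 FPKM in Tough and 32.8 ± 5.67 FPKM in Tender (limma p 0.043, adjusted p 1.00), and *MARCH5* had 6.27 ± 1.85 FPKM in Tough and 6.25 ± 2.39 FPKM in Tender.

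Of 12 genes of the PINK1 mitophagy list, 11 were below 0, against 60.3% of all tested genes. *CALCOCO2*, an autophagy receptor for ubiquitin-tagged mitochondria, had 35.9 ± 6.06 FPKM in Tough and 45.2 ± 2.58 FPKM in Tender (limma p 0.018, adjusted p 1.00, exact permutation p = 0.0043). *TOMM7*, which stabilises PINK1 at the outer membrane, had 72.0 ± 11.13 FPKM in Tough and 70.8 ± 12.9 FPKM in Tender. Among 6 mitophagy receptors *FUNDC2* had 84.4 to 142.5 FPKM in Tough and up to 128.6 FPKM in Tender, where 1 library was listed at 0, and *BCL2L13* 16.9 ± 2.14 FPKM in Tough and 18.03 ± 2.23 FPKM in Tender, with limma adjusted p of 1.00 for both.

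Of 8 proteases and chaperones, *CLPP* had 10.4 ± 1.93 FPKM in Tough and 13.0 ± 2.94 FPKM in Tender, and *HSPE1* was listed at 0 in 2 Tender libraries and had 94.4 to 162.4 FPKM in Tough. Of 5 transport genes, the kinesin adaptor *TRAK1* had 4.55 ± 1.27 FPKM in Tough and 3.27 ± 1.72 FPKM in Tender, and its relative *TRAK2* 1.15 ± 0.348 FPKM in Tough and 1.37 ± 0.542 FPKM in Tender. Before adjustment, the limma p of these 4 genes lay between 0.107 and 0.439.

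The 2 coactivators of mitochondrial biogenesis lay on opposite sides. *PPARGC1A* had 0.931 ± 0.360 FPKM in Tough and 2.00 ± 1.25 FPKM in Tender (log2 fold change -0.70, SE 0.29, limma p 0.033, adjusted p 1.00), and *PPARGC1B* had 1.31 ± 0.556 FPKM in Tough and 0.703 ± 0.258 FPKM in Tender (log2 fold change 0.56, SE 0.23, limma p 0.034, adjusted p 1.00). Genes often used to gauge mitochondrial content were nearly level, *CS*, the citrate synthase, having 84.4 ± 10.5 FPKM in Tough and 90.9 ± 13.9 FPKM in Tender, and the outer membrane channel *VDAC1* 224.4 ± 39.8 FPKM in Tough and 235.5 ± 28.9 FPKM in Tender, with limma adjusted p of 1.00 for both.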

How the data were processed

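RNA-seq (paired-end, HiSeq2000) was carried out on total RNA of *Longissimus dorsi* from 6 Tough and 6 Tender pigs. Per the labels, the authors trimmed the reads, aligned them with TopHat2 (version 2.1.0, build Sscrofa11.1) and had Cufflinks (version 2.2.1) build and quantify transcripts, 1 file per library. The deposited files give each assembled transcript in FPKM, normalised by length and mapped fragments, with a deposited isoform score that was not used here. Whether the libraries kept strand is not given in the sources used here, and the strand of a spliced transcript comes from its splice sites. The study's further Tender animal was not analysed here.

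Transcripts were assigned to RefSeq genes of the same build and strand when at least 50% of their exonic bases fell in the exons of the gene. Gene FPKM was the sum of FPKM times length over exon length. Where the mean exceeded 0.5 FPKM, a gene was tested with limma 3.58.1 (R 4.3.3) on log2(FPKM + 0.5), with no covariate, and fold changes on this scale understate those of low genes. Inclusion percentages were tested with limma over all cassette exons with a mean of at least 0.5 FPKM and an inclusion between 5% and 95%. Single genes were also tested with an exact permutation test. Scripts were tested on simulated data. The 9 members and the other lists were chosen with earlier results of these data known. From each other list the gene with the smallest p in each direction was named, and for each member the 2 genes of most similar pattern. *FLII*, *CS*, *VDAC1*, *USP16* and the genes of the *DNM1L* pattern were chosen after their values were seen. Alternatives comprised pseudocounts, filters, scalings, assignment rules, array weights, a replicate block and leaving out libraries.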

Additional observations from a re-analysis of the deposited data

Results flagged for a closer look

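In 4 of 29 groups of 6 values tested, 1 library lay far from the other 5. Chance flags about 1 in 20 independent groups, but these groups share libraries, and *OPA1* and *DNM1L* varied together (r = 0.93 over the 12 libraries). The 2 rates can therefore not be compared directly. In Tender, *OPA1* had 7.15 FPKM in Tender 4 against 1.79 to 3.42 FPKM in the other 5 libraries, *DNM1L* had 10.7 FPKM in Tender 4 against 3.42 to 5.77 FPKM, and *MFF* had 18.1 FPKM in Tender 4 against 13.5 to 15.0 FPKM. Inclusion of the 111-base exon of *OPA1* was 58.0% in Tender 6 against 63.6% to 64.3% in the other 5 Tender libraries.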

How the results depend on the processing

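No gene was called under any of the alternatives, while 224 genes had an unadjusted p of at most 0.05 and this count ran from 151 to 400 when 1 library was left out (377 without Tough 1, 383 without Tender 1, 400 without Tender 4). Of those, 64 were higher in Tough, against 134 of 277 with median-of-ratios scaling, 143 of 290 with quantile normalization and 238 of 400 without Tender 4, and array weights gave 637 in all. Unfiltered values gave 347, plain sums 375 and highest transcripts 338. The log2 fold changes of members that are near 0 changed sign in places, the smallest limma adjusted p being 0.955. With quantile normalization *FIS1* was at 0.049 and *PINK1* at 0.060. With transcripts required to lie 90% inside the gene, *OPA1* was at 0.088, *PINK1* at 0.95 and *MIEF2* at -0.80, and *MFF* could not be fitted. With plain sums *OPA1* was at 0.21, *MFF* at -0.090 and *DNM1L* at -0.55, and with the highest transcript alone *OPA1* was at 0.32 and *MFF* at -0.15. With array weights *OPA1* was at 0.025, *DNM1L* at 0.011 and *PINK1* at 0.0072. Without Tough 2, Tough 3 and Tender 4 together, chosen after seeing the data and given no test, *MFN1* was at -0.13. Leaving out 1 library gave -0.12 to 0.18 for *MFN1*, -0.26 to 0.085 for *OPA1*, -0.26 to 0.058 for *DNM1L*, -0.15 to 0.0055 for *FIS1*, -0.14 to 0.026 for *PINK1* and -1.21 to 3.30 percentage points for inclusion of the 68-base exon of *MFN2*. For cassette exons, 1 exon was called, against 0 with a mean above 2 FPKM, 0 with either splice site, 0 with the replicate block and 0 to 4 with 1 library left out (3 without Tender 1, 4 without Tender 2). The cause of these changes was not tested. Animals of the same number did not deviate together (r from -0.22 to 0.02, none of 6 over 0.1), so no sign of a pairing by number was seen. Whether animals of the same number shared a batch or lane is not known. With the replicate block 0 genes were called and 171 had an unadjusted p of at most 0.05.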
